A study of Rattus norvegicus with 9 samples.

Results

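Chromatin accessibility was examined around Fos and Jun, the genes of the founding subunits of the transcription factor AP-1, in rat dorsal root ganglia (DRGs) after nerve injury. The members were the accessible regions lying wholly inside a 170-kb window around each gene in the rat genome build rn6, chr6:109220000-109390000 for Fos and chr5:113930000-114100000 for Jun. They numbered 36 of 186719 accessible regions, 21 in the Fos window and 15 in the Jun window. Within these windows, regions were taken by their position. AP-1 is a dimer of basic leucine zipper proteins, in which a Fos protein needs a partner such as Jun, while Jun can also pair with itself. Both genes are immediate early genes, switched on within minutes of a stimulus without new protein synthesis, and c-Jun is a widely used marker of sensory neurons whose axons have been injured.

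Accessibility was measured by ATAC-seq, in which the Tn5 transposase inserts adaptors into open chromatin, so that reads accumulate where DNA is exposed. The DRGs of levels L4 to L6 on the injured side came from 2 female Sprague-Dawley rats 14 days after the sciatic nerve was constricted (chronic constriction injury, CCI) and from 3 naive females of the same strain, with 1 rat per library. These numbers follow the labels of the libraries, while 3 CCI and 2 naive rats, and 3 of each, are also stated for the experiment. Any further library was not analysed here. The rats were adults, for which ages of 8 to 10 weeks and of 12 to 16 weeks are both stated. H3K4me1, a histone mark found at enhancers and around promoters, was mapped by ChIP-seq in 2 CCI and 2 naive pools of 3 rats each, and its regions were merged into 1 list, which therefore cannot be compared between the groups. The naive rats had no surgery, so effects of the operation and of the constricted nerve cannot be told apart. Whole ganglia were used, so a change in the share of a cell type and a change in accessibility per cell cannot be told apart.

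Each value below is a normalized read count, in which the reads of a region were scaled by a library size factor relative to naive rat 2. The libraries held 7692994 and 9304710 reads in accessible regions in CCI rats 1 and 2, and 13248437, 4633807 and 6382154 for naive rats 1 to 3. Naive rat 2 was thus the shallowest library. In it, the Fos regions held between 3 and 363 reads each and the Jun regions between 5 and 427. Counting error is therefore small for the strongest regions and large for the weakest, and 3 of the 36 regions had 3 reads or fewer in at least 1 library.

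By gene order in the RefSeq annotation of GRCr8, Fos lies between Tmed10, which encodes a cargo receptor of the early secretory pathway, and Jdp2, with Batf next. Jdp2 and Batf encode basic leucine zipper proteins that also pair with Jun proteins. Jun lies between Mysm1, which encodes a histone H2A deubiquitinase, and Fggy, which encodes a carbohydrate kinase. Placement of the regions on transcripts of these genes in rn6 was not analysed here.

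The Fos window was rich in accessible regions, with 12.4 per 100 kb against 7.6 over the 1 Mb on each side, where 152 regions lay. The Jun window had 8.82 per 100 kb against 6.3 in its flanks, where 126 regions lay. Among 14308 tiles of 170 kb along the genome, the median was 12 regions, with quartiles of 8 and 16. The 21 regions of the Fos window were thus above the upper quartile, and the 15 of the Jun window were within the quartiles. These tiles had at least 5 accessible regions and at least 20 in their flanks.

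H3K4me1 was denser in the Jun window than in its flanks, and about as dense in the Fos window as in its flanks. In the Fos window, 10 of 21 regions (47.6%) shared at least 1 bp with an H3K4me1 region, against 73 of 152 (48.0%) in its flanks. In the Jun window, 9 of 15 (60%) did, against 24 of 126 (19.0%), and over all accessible regions the share was 31.3%. H3K4me1 covered 13.3% of the bases of the Fos window and 13.4% of its flanks, and 10.2% of the Jun window and 4.19% of its flanks. Each is a count over a single stretch of genome and carries no test. Most H3K4me1 regions had no accessible region in them, since an accessible region lay in 6 of 25 in the Fos window and in 5 of 19 in the Jun window. The median region with the mark was more accessible than the median region without it. Per kb of region, the median over the 5 rats' means was 118 normalized reads with H3K4me1 and 44.7 without it in the Fos window, and 176 and 46.3 in the Jun window. The classes overlapped in both windows. Fos-1 with the mark had 27.2 per kb and Fos-18 without it 78.3, and Jun-4 with the mark had 48.8 and Jun-12 without it 53.3, all named after their values were seen. Over all accessible regions with H3K4me1 the median was 55.7 per kb.

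In the Fos window, numbered from the lowest coordinate, the open chromatin was concentrated in 3 stretches. The strongest single region was Fos-6, chr6:109281324-109282470, which at 1147 bp was also the longest of the window and lay wholly inside an H3K4me1 region of 1430 bp. Its mean of 291 normalized reads per kb equalled or exceeded 99.5% of all accessible regions. A gap of 16178 bp separated it from Fos-7. An H3K4me1 region of 5155 bp at chr6:109298109-109303263, longer than 99.2% of the 211440 in the list, held both Fos-7 (chr6:109298649-109299448) and Fos-8 (chr6:109299781-109300878), which are 332 bp apart. These had 133 and 184 normalized reads per kb. An H3K4me1 region of 2481 bp, chr6:109312455-109314935, held Fos-9 (chr6:109312613-109313549), Fos-10 (chr6:109313754-109313940) and 76.0% of the bases of Fos-11, with 193, 115 and 122 normalized reads per kb. Together with Fos-5 at chr6:109261562-109262538, which had 51.3 per kb, the regions Fos-6 to Fos-9 were the 5 with the most reads and took 82.9% of the window's normalized reads. Fos-10 and Fos-11 were short but open for their length. All other regions of the window had fewer mean reads than any of Fos-5 to Fos-11. The 11 without H3K4me1 had between 5.05 and 21.1 mean normalized reads each, where the median of all accessible regions was 9.66. The highest of them, Fos-18, had 78.3 per kb, at least as many as 87.8% of all accessible regions.

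In the Jun window, most of the normalized reads lay in a single stretch. An H3K4me1 region of 6377 bp, chr5:114010423-114016799, was longer than 99.6% of the list and held 5 accessible regions, Jun-5 to Jun-9. Only 84 H3K4me1 regions of the list, 0.0397%, held as many. These 5 regions made up 61.4% of the window's normalized reads. The middle one of the 5 was Jun-7, chr5:114014211-114015110, the strongest region of both windows, with 428 normalized reads per kb, at least as many as 99.9% of all accessible regions. On either side of it were Jun-5 (chr5:114012777-114013006), Jun-6 (chr5:114013574-114013874), Jun-8 (chr5:114015272-114015665) and Jun-9, with 257, 176, 274 and 241 per kb. Far outside this stretch, Jun-1 at chr5:113938597-113939745 was the longest region of the window at 1149 bp and had 154 per kb. Its mean of 177 normalized reads was above that of every other region of the window but Jun-7. Jun-11 (chr5:114045212-114045717) and Jun-15 (chr5:114094759-114095428) also overlapped H3K4me1 and had 88.9 and 72.0 per kb.

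The first comparison asked whether single regions around Fos differed in accessibility between CCI and naive rats. The moderated test of limma was run on log2(normalized reads + 1), where the added 1 often, but not always, makes fold changes of weakly covered regions smaller. No region of the Fos window passed the threshold of an unadjusted p of 0.01 in this test. The count was 0 of the 10 regions with H3K4me1, where 5.25% of the 58445 such regions in the table passed, and 0 of the 11 without it, where 3.59% of all regions passed in the fit over all regions. At an unadjusted p below 0.05 the count was 1 with H3K4me1, Fos-10, where 14.9% of such regions passed, and 0 without, where 11.1% of all regions passed. The lowest Benjamini-Hochberg adjusted p in the window in this limma fit was 0.332. On the reads themselves, edgeR and DESeq2 also called 0 of the 10 at 0.01, where 5.75% and 2.69% of the regions with H3K4me1 passed. At 0.05, edgeR called 1, which was Fos-7 and not Fos-10, and DESeq2 called 0, where 15.7% and 9.34% passed.

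Fos-10 had the lowest p of the Fos window in limma over the regions with H3K4me1. It had 31.4 and 24.3 normalized reads in CCI rats 1 and 2, and 24.2, 14 and 13.8 for naive rats 1 to 3. Both CCI values lay above the naive ones, although CCI rat 2 exceeded naive rat 1 by less than 1 normalized read. The log2 fold change was 0.69 ± 0.35 (SE), with a limma p of 0.0491 and an adjusted p of 0.332. Its p was above 0.05 in limma over all regions (0.0514), after median-of-ratios rescaling (0.0923) and quantile normalization (0.0815), in edgeR (0.0794) and in DESeq2 (0.181). After centring on the flanks, its log2 fold change was 0.44, with a limma p of 0.269.

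Fos-7, which shares its H3K4me1 region with Fos-8, was close to it in p and had the lowest p of the window in limma over all regions (0.0442), in edgeR (0.0471) and in DESeq2 (0.0556). It had 150.2 and 109.9 normalized reads in the CCI rats, and 83.3, 108 and 80.8 in the naive rats. The groups did not overlap, yet CCI rat 2 was nearly level with naive rat 2. Its log2 fold change was 0.51 ± 0.26 (SE), with a limma p of 0.0512 and an adjusted p of 0.338. It was the only one of the 10 tested Fos regions to pass 0.01 under any alternative processing, with a limma p of 0.00823 after quantile normalization and of 0.00964 without CCI rat 2, where the single CCI rat left is assumed to vary like the naive rats. Under these alternatives 11.1% and 7.15% of the regions with H3K4me1 passed. In the other direction, its limma p was 0.107 after median-of-ratios rescaling, 0.314 without CCI rat 1, with a log2 fold change of 0.29, and 0.268 after centring on the flanks, with 0.26. Its neighbour Fos-8 had 257 and 180.4 normalized reads in the CCI rats, and 176, 205 and 193 in the naive rats. Here CCI rat 1 was highest while CCI rat 2 lay among the naive rats, and the log2 fold change was 0.17 ± 0.26 (SE), with a limma p of 0.506 and an adjusted p of 0.786.

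The most accessible region, Fos-6, had 407 and 317 normalized reads in the CCI rats, and 304, 363 and 279.9 in the naive rats. The groups overlapped, with CCI rat 2 below naive rat 2, and the means of 362 ± 63.1 (SD, n = 2) and 316 ± 42.8 (SD, n = 3) differed by less than the spread between the CCI rats. Fos-9 showed the same order at the top, with 222 and 174 in the CCI rats against 142, 217 and 149 in the naive rats. Fos-5 was more uniform among the naive rats, with 42.5, 42 and 44.0, and had 71.4 and 50.8 in the CCI rats. The 2 CCI values of Fos-5 lay above all 3 naive values but differed from each other by more than the lower of them differed from the naive rats, and its log2 fold change was 0.48 ± 0.28 (SE), with a limma p of 0.0892 and an adjusted p of 0.411. This fold change was 0.24 without CCI rat 1, 0.72 without CCI rat 2 and 0.23 after centring on the flanks.

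In the Fos window, both CCI rats exceeded all naive rats in 4 of 21 regions, Fos-5, Fos-7, Fos-10 and Fos-12, where 18.2% of all accessible regions did so. Fos-12, named after its values were seen, lay without H3K4me1 at chr6:109321030-109321277. In 0 of the 21 were both CCI rats below all naive rats, which held for 11.0% of all regions. The log2 fold change was above 0 in 20 of 21 regions, the exception being Fos-16 with -0.10, and the median was 0.35. It was above 0 in 58.1% of all accessible regions, with a median of 0.13, and in 113 of 152 regions of the flanks, with a median of 0.28. The scaling of the libraries moves all fold changes, as the median over the regions with H3K4me1 was 0.15 as deposited, 0.04 after median-of-ratios rescaling, 0.05 after quantile normalization and -0.12 after each rat was centred on the flanks. The fold change was above 0 in 9 of the 10 Fos regions with H3K4me1 under the first 3 of these scalings. After each rat was centred on the flanks, the fold change was above 0 in 12 of 21, 5 of them among the 10 with H3K4me1. With no centring, the count also depended on which CCI rat was kept. Without CCI rat 1 the fold change was above 0 in 7 of the 10 regions with H3K4me1 and 10 of the 11 without it, and without CCI rat 2 in 9 and 6. The medians of these 2 classes were 0.31 and 0.35 with all rats. They were 0.15 and 0.94 without CCI rat 1, and 0.46 and 0.06 without CCI rat 2.

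The Jun window was compared in the same way. No Jun region passed an unadjusted p of 0.01 in limma. Among those with H3K4me1, 0 of 9 passed, where 5.25% of all regions with the mark did. Among those without it, 0 of 6 passed, where 3.59% of all accessible regions did in the fit over all regions. At an unadjusted p below 0.05 the counts were 0 and 1, where 14.9% of regions with H3K4me1 and 11.1% of all regions passed, and edgeR and DESeq2 gave 0 of the 9 at both 0.01 and 0.05, where the shares of the table were 5.75% and 15.7% for edgeR and 2.69% and 9.34% for DESeq2. The region past 0.05 was Jun-10, at chr5:114044629-114044963, outside H3K4me1 and named after its values were seen. It had 24.0 and 17.9 normalized reads in the CCI rats and 9.15, 6 and 26.3 in the naive rats. Naive rat 3 thus had the highest value of all and naive rat 2 the lowest. In limma over all regions, its p of 0.0497 became 0.00479 without naive rat 3, but 0.327 without naive rat 2, 0.152 without naive rat 1 and 0.273 without CCI rat 1. It was also above 0.05 after median-of-ratios rescaling (0.0859), in edgeR (0.150) and in DESeq2 (0.341).

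In the long H3K4me1 region, the groups overlapped in all 5 accessible regions. Jun-7 had 429 and 366 normalized reads in CCI rats 1 and 2, and 357, 427 and 347 for naive rats 1 to 3. CCI rat 1 and naive rat 2 were nearly level at the top and the other 3 rats nearly level below, so the groups were interleaved. The log2 fold change was 0.08 ± 0.26 (SE), with a limma p of 0.769 and an adjusted p of 0.916. Jun-8 had 121 and 95.2 in the CCI rats, and 98.3, 109 and 116 in the naive rats, so that the CCI rats held both the highest and the lowest value. In Jun-5, the values were 74.1 and 54.0 in the CCI rats and 48.0, 67 and 51.9 in the naive rats. Jun-6 followed the same order at the top, with 66.1 and 48.5 in the CCI rats and 46.1, 64 and 40.1 in the naive rats. In each of Jun-5 to Jun-8, CCI rat 1 was highest. Summed over Jun-5 to Jun-9, the normalized reads were 663 ± 94.9 (SD, n = 2) in CCI rats and 628 ± 74.8 (SD, n = 3) in naive rats, a difference smaller than either SD.

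The Jun regions outside that stretch that overlapped H3K4me1 had lower group means in CCI rats. Jun-11 had 44.7 and 27.9 normalized reads in the CCI rats, and 37.9, 67 and 47.3 in the naive rats. CCI rat 2 was lowest and naive rat 2 highest, while CCI rat 1 lay between naive rats 1 and 3. The log2 fold change was -0.47 ± 0.29 (SE), with a limma p of 0.106 and an adjusted p of 0.437. When each rat was centred on its flanks before limma, Jun-11 had a log2 fold change of -0.74 and a p of 0.00702, and was the 1 Jun region past the threshold, which 5.20% of the regions with H3K4me1 passed after this centring, 218 of them higher and 2821 lower. Without this centring, the log2 fold change of Jun-11 was -0.58 after median-of-ratios rescaling and -0.52 after quantile normalization, with limma p of 0.0388 and 0.0367. Also uncentred, it was -0.80 without CCI rat 1, -0.14 without CCI rat 2, and -0.25 without naive rat 2, the last with a limma p of 0.428. Jun-15 had 58.7 and 30.7 in the CCI rats, and 52.0, 57 and 42.7 in the naive rats. The CCI rats again held both the highest and the lowest value, and the log2 fold change was -0.24 ± 0.29 (SE), with a limma p of 0.411 and an adjusted p of 0.728. Jun-1 had 209.6 and 128 in the CCI rats, and 165, 208 and 176 in the naive rats. Its CCI values also lay at both ends, with a log2 fold change of -0.15 ± 0.26 (SE), a limma p of 0.559 and an adjusted p of 0.815. The direction depended on the CCI rat kept. Jun-15 and Jun-1 had log2 fold changes of 0.22 and 0.20 without CCI rat 2, and of -0.69 and -0.50 without CCI rat 1.

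In the Jun window, both CCI rats exceeded all naive rats in 1 of 15 regions and lay below them in 0, against 18.2% and 11.0% of all regions. The 1 region was Jun-13 (chr5:114082394-114082598), without H3K4me1 and named after its values were seen, where the CCI rats had 10.7 and 5.95 normalized reads, and the naive rats 4.57, 5 and 1.31. Its naive rat 3 value came from 2 reads, so its log2 fold change of 1.08 ± 0.79 (SE) is imprecise. The log2 fold change was above 0 in 8 of 15 Jun regions, with a median of 0.03 and a range from -0.70 to 1.08. It was above 0 in 58.1% of all regions and in 73 of 126 regions of the flanks, where the median was 0.18. Among the 9 with H3K4me1 it was above 0 in 3, in 0 without CCI rat 1, in 7 without CCI rat 2, and in 0 after centring on the flanks.

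The windows were then set against the 1 Mb on each side. For each rat, the median log2(normalized reads + 1) of the flanking regions was subtracted from that of the window, and the group means of this difference were compared without a test, since it is a score over members. The Fos window lay slightly below its flanks in both groups. The difference was -0.23 and -0.26 in CCI rats 1 and 2, and -0.16, -0.42 and -0.30 for naive rats 1 to 3. The CCI values lay within the naive range, and the CCI mean minus the naive mean was 0.05, under the pooled SD of 0.10. Without the 25% of regions with the fewest reads it was 0.26, over the regions with H3K4me1 only it was 0.12, and with any 1 rat left out it was between -0.02 and 0.11. Summed normalized reads gave a similar picture, with the window at 22.3% and 22.1% of its flanks in the CCI rats and 21.4%, 22.0% and 21.7% in the naive rats. The CCI shares were the highest, by under 1 percentage point over any naive rat. The summed reads of the window were 1314 and 1049.8 in the CCI rats and 908, 1097 and 899 in the naive rats, so that CCI rat 1 was highest and CCI rat 2 below naive rat 2. In the flanks, CCI rat 1 was likewise highest with 5900.4 and naive rat 2, with 4994, was above CCI rat 2, with 4741. The log2 ratios of group means were 0.29 for the window and 0.25 for the flanks.

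Around Jun, the 2 measures differed. The median region of the window stood above that of the flanks by 1.97 and 1.46 on the log2 scale in CCI rats 1 and 2, and by 1.89, 2.69 and 2.11 for naive rats 1 to 3. CCI rat 2 was lowest and naive rat 2 highest, with CCI rat 1 among the naive rats. The CCI mean minus the naive mean was -0.52, against a pooled SD of 0.40. It was -0.77 without CCI rat 1 and -0.26 without CCI rat 2. Without naive rats 1, 2 and 3 in turn, it was -0.68, -0.29 and -0.58. With all rats but only the regions with H3K4me1, it was -0.41. Summed reads showed no such offset, with the window at 44.9% and 40.5% of its flanks in the CCI rats and 39.6%, 45.8% and 42.7% in the naive rats. The group means were 42.7% in both, and the log2 ratio of summed reads differed by 0.000678. The median gives each region the same weight, while the sum is led by the strongest regions. With 15 regions, the window median of a rat is the value of a single region, which was not the same in every rat. It was Jun-11 in CCI rat 1 and Jun-15 in CCI rat 2. Taken region by region, the median log2 fold change was 0.03 in the window and 0.18 in the flanks.

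These values can be placed among the tiles of the genome, where the CCI minus naive difference between a tile and its flanks had a median of -0.02, quartiles of -0.22 and 0.18, and 5th and 95th percentiles of -0.53 and 0.47. The Fos value of 0.05 was within the quartiles, and the Jun value of -0.52 was between the lowest percentile given and the lower quartile. In the flanks themselves, 1 of the 73 Fos and 1 of the 24 Jun regions with H3K4me1 passed an unadjusted p of 0.01 in limma. Of all regions with H3K4me1, 5.25% passed. Both CCI rats exceeded all naive rats in 40 of 152 regions of the Fos flanks and in 25 of 126 of the Jun flanks. They lay below all naive rats in 5 and 17. Over all accessible regions, the shares were 18.2% above and 11.0% below.

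Which CCI rat was higher varied among the regions. In the 4 Fos and 3 Jun regions with a mean of at least 100 normalized reads, CCI rat 1 had the highest value of the 5 rats, as it did in 58.0% of all accessible regions of that strength. In the Fos window, 9 regions had a mean under 10, and CCI rat 2 was highest in 7 of them, where it was highest in 26.6% of all such regions. Other weak regions did not follow this, as CCI rat 1 was highest in 22 and CCI rat 2 in 11 of the 52 regions of this strength in the Fos flanks, and each in 1 of 2 in the Jun window. Fos-19, a region named after its values were seen, had 11.0 normalized reads in CCI rat 2 but only 2 in CCI rat 1, against 4.90, 4 and 4.60 among the naive rats. The CCI mean of Fos-19 thus rests on 1 rat. The part of library composition in these differences was not tested.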

How the data were processed

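ATAC-seq libraries of 2 CCI and 3 naive rats were compared, grouped by the labels. The authors trimmed reads with Trimmomatic, ran Bowtie2 against rn6, dropped duplicates and reads of mapping quality below 10, shifted reads for Tn5, extended each insertion to 150 bases, called regions per library with MACS2 and counted reads over merged regions with DiffBind. Versions are not given in the sources used here, apart from CASAVA 1.8.2 in the submitters' processing notes. The deposited signal is reads per region divided by a size factor (1.50, 2.18, 3.06, 1 and 1.52 for CCI rats 1 and 2 and naive rats 1, 2 and 3), with a lowest value of 1 read. Multiplication by the factors gave whole reads, within 0.02 reads, for 100% of values. For H3K4me1, the deposited list holds merged MACS2 broad regions called against input in each group, with positions only.

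Overlaps of at least 1 bp were found with bedtools 2.31.1. The comparison used limma 3.58.1 in R 4.3.3 with a mean-variance trend on log2(normalized reads + 1), two-sided, with no covariate and no filter, fitted on the 58445 regions overlapping H3K4me1. Members without H3K4me1 took their values from a fit over all 186719 regions. A region was called at an unadjusted p below 0.01, with the Benjamini-Hochberg adjusted p over all regions fitted beside it. The methods of the study use 0.05, in DiffBind and on peaks seen in 2 or more samples of each group, which was not repeated here. In the limma fit, 1 tested region, Fos-10, passes 0.05, as did 14.9% of the regions with H3K4me1. An exact permutation test of 2 against 3 rats cannot go below 0.1 and was not used. edgeR 4.0.16 (quasi-likelihood) and DESeq2 1.42.0 were run on the recovered whole reads, keeping the deposited factors. Other steps used Python 3.11.15, numpy 2.4.6 and pandas 2.3.3. The limma step was tested on simulated reads, with changes planted only in regions above the median signal. The outcome is not given here, and the run does not cover weak regions.

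Named in full were, in each window, the 5 regions with the highest mean, the 3 with the lowest p among those tested, any called region and the longest. Members and lists were chosen with earlier results of these data known. Alternatives were p below 0.05, an adjusted p below 0.05, pseudocounts of 0.1 and 10, a filter on the lowest 25%, median-of-ratios and quantile scaling, no trend, each rat left out, a replicate block, all regions, a 50% overlap, H3K4me1 regions of at least 1 kb, centring on the flanks, flanks of 0.5 and 2 Mb, regions with H3K4me1 only, and summed reads. Annotation in rn6, other AP-1 genes, cell type markers and sequence motifs were not analysed here.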

Additional observations from a re-analysis of the deposited data

How the results depend on the processing

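The count of called regions among those with H3K4me1 was 0 in both windows under every alternative run except the following. In the Fos window it was 1 at p below 0.05, 1 after quantile normalization and, with each rat left out in turn, between 0 and 1. In the Jun window it was 1 when each rat was centred on the flanks, which also held over all regions, an alternative added after seeing the data. Of the members without H3K4me1, fitted over all regions, Jun-10 passed 0.01 without naive rat 3 (limma p of 0.00479) and with the replicate block (0.00256). The block fit rests on the same 4 rats, since naive rat 3 is alone in its block. Under the other alternatives, 0 of these members passed. The share of all regions passing in these 2 fits is not given here. Among the 58445 regions with H3K4me1, 2134 passed without naive rat 3 and 1416 with the block. The numbers of regions with H3K4me1 became 10 and 8 with an overlap of at least 50% and 9 and 6 with H3K4me1 regions of at least 1 kb. Relative to the flanks, the Fos difference moved to 0.26 without the lowest 25% of regions and lay between -0.02 and 0.11 with each rat left out; it was 0.12 with the regions with H3K4me1 only and -0.05 with flanks of 0.5 Mb. The Jun difference moved to 0.000678 with summed reads and lay between -0.77 and -0.26 with each rat left out. Of 232 log2 fold changes recomputed for the 13 named regions, 209 kept their direction and side of the threshold, 3 passed it (Fos-7 in 2 alternatives and Jun-11 in 1) and 20 changed sign, all of them uncalled. After centring on the flanks these were Fos-6 (-0.0570), Fos-8 (-0.0807), Fos-9 (-0.0112), Jun-5 (-0.0687), Jun-6 (-0.0628) and Jun-7 (-0.188). Jun-7 was -0.0351 after median-of-ratios rescaling and -0.00297 after quantile normalization, and Jun-8 was 0.00584 with edgeR and 0.00586 with DESeq2. With each rat left out, the ranges were -0.0835 to 0.42 for Fos-8, -0.50 to 0.20 for Jun-1, -0.0276 to 0.42 for Jun-5, -0.0163 to 0.42 for Jun-6, -0.0355 to 0.19 for Jun-7, -0.17 to 0.17 for Jun-8 and -0.69 to 0.22 for Jun-15. The cause of these changes was not tested. The replicate numbers were not taken to pair the rats. Deviations from the group means had correlations across regions of -0.085 and -0.075 for the rats numbered 1 and 2. With 2 CCI rats, their deviations mirror each other, so these correlations cannot exclude a pairing. With the number as a block, 0 regions with H3K4me1 were called in either window, Jun-8 was 0.0546, and 1416 regions of the table were called. Without the block 3066 were called, 1962 higher and 1104 lower in CCI. That count was 1161 higher and 2030 lower after median-of-ratios rescaling, 3216 and 3253 after quantile normalization, and 218 and 2821 after centring on the flanks. It was 1763 in all without a trend, 1572 with DESeq2, 8736 at p below 0.05 and 438 at an adjusted p below 0.05, and it lay between 1477 and 4181 with each rat left out. The direction of these calls turned with the CCI rat kept, with 269 higher and 1740 lower without CCI rat 1 and 3427 higher and 754 lower without CCI rat 2. Depth limits the weak regions most, since regions with a few reads in naive rat 2 have SEs of up to 0.81 on the log2 scale.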
